A study of Macaca fascicularis with 36 samples.

Results

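Frontal cortex of cynomolgus monkeys given Para09 at its higher dose was compared with frontal cortex of monkeys given anti-gD, the isotype control antibody. Para09 is labelled as an agonist directed at human TREM2. The comparison took 24 of the 36 libraries of the series: the 12 libraries labelled as treatment 5 (animals 5501 to 5504, Para09 at 200 mg/kg) and the 12 labelled as treatment 1 (animals 1501 to 1504, anti-gD at 200 mg/kg). Both groups were injected intrathecally and sampled on day 2, so the control animals had the same injection and dose of antibody. The labels give neither age nor sex, and do not say how a dose per kg applies to this route or whether the antibody binds the monkey receptor. Each animal contributed 3 libraries, lettered A, B and C. The labels do not say what the letters stand for or whether they are separate pieces of cortex. The animal was therefore the replicate (4 against 4) and the libraries of an animal were read as repeated measurements. The third group, Para09 at 50 mg/kg, entered the fit for its estimate of spread, and its levels are given beside some results.

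TREM2 is a lipid-sensing receptor that the brain's resident macrophages, the microglia, carry on their surface. It signals through the adaptor TYROBP and the kinase SYK, and it is known for its part in phagocytosis, lipid handling and survival of microglia near damaged tissue. Agonist antibodies cluster the receptor to drive that signal. The files list genes by Ensembl-type identifiers without names, and none could be paired with a symbol, so no value is given for TREM2, for its pathway or for cell type markers, and the labelled tissue was not checked against markers. In bulk tissue, a change in the number of cells that hold a transcript and a change in the amount per cell cannot be told apart.

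Libraries held 16502906 to 25071380 counts with anti-gD and 15677086 to 24929510 at 200 mg/kg. Summed over its 3 libraries, an animal held 54744165 to 73237208 counts with anti-gD and 62028920 to 66719002 at 200 mg/kg. The sample identifiers form 2 runs of numbers, treated as a batch: each group had 6 libraries in the first run and 6 in the second. Animals 1504 and 5501 had all 3 libraries in the first run, and each of the other 6 animals had its B library there and its A and C libraries in the second. The share of the authors' read total that fell in the gene table was 57.7% ± 1.86 with anti-gD and 58.4% ± 0.913 at 200 mg/kg (SD, n = 4 animals, exact two-sided permutation p = 0.543, adjusted over 3 quality values 0.8). Library 5501B stood apart, with 15665 genes detected after all libraries were thinned to 15000000 counts, where each of the other 23 libraries of these groups detected at least 17885.

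Of the 28623 genes listed, 17360 passed the low-count filter, and edgeR called none of these at 200 mg/kg against anti-gD. With run as a covariate, edgeR's quasi-likelihood test called 0 of 17360 genes (0%) at a Benjamini-Hochberg adjusted p under 0.05, and the lowest adjusted p was 0.183, shared by 3 genes. DESeq2 called 28 genes (0.161%) and a library-level limma voom model 16 (0.1%), and these are taken up after the single genes. At an unadjusted p under 0.05, 674 genes were higher (3.88%) and 582 were lower (3.35%), 1256 in all where evenly spread p-values give 868. Which direction held more genes depended on the fit: with only the 8 compared animals there were 606 higher and 791 lower, and without library 5501B 686 higher and 470 lower. The total was 1898 without control animal 1502, and over the 8 fits that each left out an animal it ran from 860 to 1898. For 236 genes (1.36%) all 4 treated animals lay above all 4 control animals, and for 174 genes (1%) all 4 lay below. Relabelling the 8 animals at random separates the groups, in either direction, with a probability of 0.0286, and nothing is read from these counts. Below, 2 genes with higher and 2 genes with lower levels are described in full, those of smallest p once genes with a mean level under 1 CPM (the count scaled by the size of the library) were set aside. They were picked for that p, so their fold changes and p-values describe these animals and lean toward large effects.

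**Figure D1:**
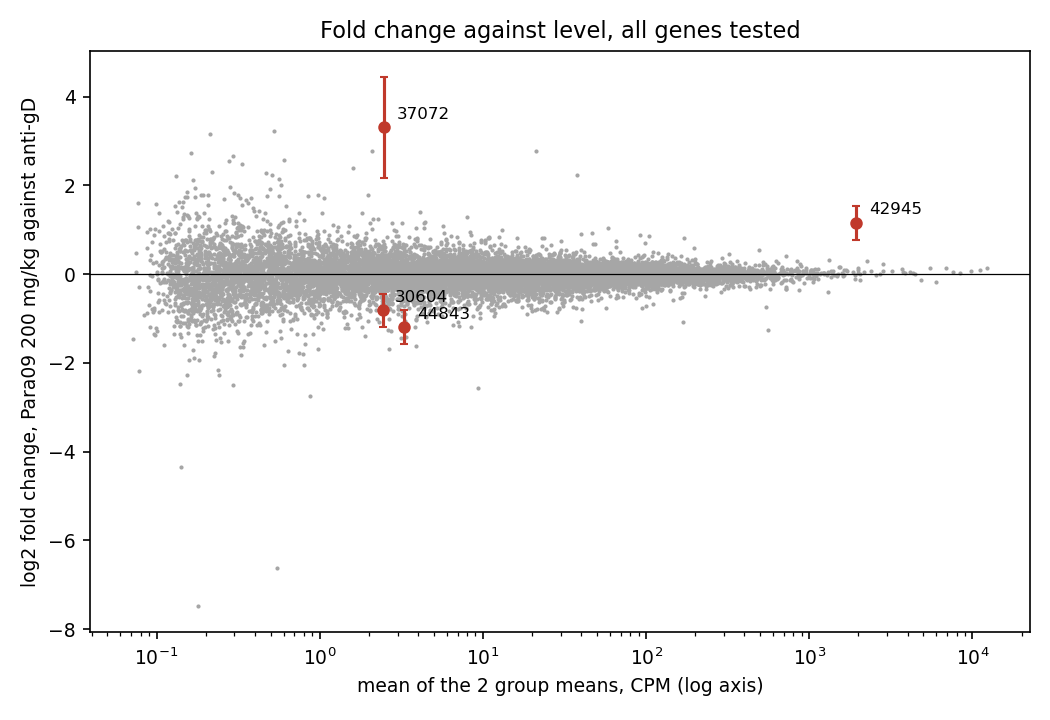
Each point is 1 of 17360 genes, by its mean level (CPM, log axis) and its log2 fold change between Para09 at 200 mg/kg and anti-gD (edgeR). Red points are the 4 genes described in the text, marked by the last 5 digits of their identifiers, with 95% intervals. The cloud narrows as the level rises, and ENSMFAG00000042945 lies at the right, far above it.

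The gene of smallest p was ENSMFAG00000042945, an abundant transcript with an exonic width of 4961 bases that ranked 31 by CPM among the 17360 genes. Its level was 1395, 975, 1254 and 1182 CPM in control animals 1501, 1502, 1503 and 1504. In animals 5501, 5502, 5503 and 5504 at 200 mg/kg it was 2658, 2861, 2859 and 2323 CPM. The groups did not overlap, and the lowest treated animal was well above the highest control. The same held for single libraries: the 12 control libraries ran from 754 to 1694 CPM with a median of 1183, and the 12 treated libraries from 1829 to 3735 CPM with a median of 2391. The libraries of one animal still differed widely, from 1829 CPM in 5502C to 3600 CPM in 5502A. The log2 fold change was 1.16 (SE 0.17, 95% interval 0.78 to 1.53), a 2.23-fold higher level, higher in 4 of 4 treated animals (exact two-sided permutation p = 0.0286, the smallest that 4 against 4 can give). Its adjusted p in edgeR was 0.183. Within the first run (letter B in all animals) the log2 fold change was 1.06 (SE 0.27), within the second run 1.09 (SE 0.19), in letter A alone 1.22 and in letter C alone 1.21. The test of a difference between the runs gave -0.24 (95% interval -0.66 to 0.19, edgeR adjusted p = 0.545). At 50 mg/kg the gene stood at 1604 CPM ± 369 (SD, n = 4 animals).

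The second gene with a higher level, ENSMFAG00000037072, was scarce and had a long exonic width of 12661 bases. Its mean was 0.46 CPM in controls, 1.03 CPM at 50 mg/kg and 4.52 CPM at 200 mg/kg. It thus passed the bound of 1 CPM through the 200 mg/kg group, and its separation of the groups is a description. Control animals 1501 to 1504 held 0.435, 0.446, 0.357 and 0.603 CPM, which rest on 23 to 39 counts per animal. Animals 5501 to 5504 held 4.41, 1.9, 9.95 and 1.81 CPM, from 116 to 672 counts. Every treated animal was above every control, while the treated animals spread far more among themselves than the controls did. The high level of animal 5503 was present in each of its libraries, at 8.53 CPM in A, 13.1 CPM in B and 8.67 CPM in C, and animal 5501 was next in each letter. All 12 treated libraries (1.25 to 13.1 CPM, median 3.29) lay above all 12 control libraries (0.0812 to 0.854 CPM, median 0.487). The log2 fold change was 3.31 (SE 0.52, 95% interval 2.18 to 4.44), higher in 4 of 4 treated animals (exact permutation test, two-sided, p = 0.0286), with an edgeR adjusted p of 0.183. Without animal 5503 the log2 fold change was smaller, 2.37, yet the gene was then called by edgeR, with an adjusted p of 0.0244 (8.01e-08 to 0.934 over all 23 alternative fits) and a SE of 0.26. It was 3.05 within the first run and 3.63 within the second. At 50 mg/kg the level was 1.03 CPM ± 0.242 (SD, n = 4 animals).

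The lower gene of smallest p was ENSMFAG00000044843, with an exonic width of 3585 bases. It stood at 4.43, 4.38, 5.65 and 3.93 CPM in control animals 1501 to 1504 and at 1.8, 2.08, 2.53 and 1.62 CPM in animals 5501 to 5504. The animals did not overlap. Single libraries did: the lowest control library was 1501B at 2.87 CPM and the highest treated library was 5503B at 3.17 CPM, and both are letter B libraries of the first run. Within the second run the 6 control libraries (3.82 to 5.93 CPM) and the 6 treated libraries (1.55 to 2.38 CPM) were apart. The log2 fold change was -1.19 (SE 0.18, 95% interval -1.59 to -0.80), lower in 4 of 4 treated animals (exact permutation test, two-sided, p = 0.0286), and the edgeR adjusted p was 0.183. It was -1.32 within the first run, -1.26 within the second and -1.12 without library 5501B. At 50 mg/kg the level was 2.76 CPM ± 0.4 (SD, n = 4 animals).

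The other lower gene was ENSMFAG00000030604, with an exonic width of 1146 bases. Its levels were 3.36, 3.07, 3.48 and 2.49 CPM in control animals 1501 to 1504 and 1.41, 2.1, 1.84 and 1.71 CPM in animals 5501 to 5504, again without overlap of the animals. Its values in the 2 runs were as follows. In letter B the 4 control libraries held 1.92 to 2.28 CPM and the 4 treated libraries 0.696 to 2.1 CPM, and these overlap. In the second run the controls held 3.17 to 5.34 CPM and the treated libraries 1.52 to 2.6 CPM, and these do not. The log2 fold change was -0.81 overall (SE 0.17, 95% interval -1.18 to -0.44, edgeR adjusted p = 0.522). It was -0.50 (SE 0.34) within the first run and -1.06 (SE 0.22) within the second. The difference between the runs was -0.85 (95% interval -1.55 to -0.14), which did not pass the edgeR test over all genes (adjusted p = 0.173). At 50 mg/kg its level was 3.04 CPM ± 0.575, beside 3.10 CPM ± 0.441 in the controls (SD, 4 animals per group).

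**Figure D2:**
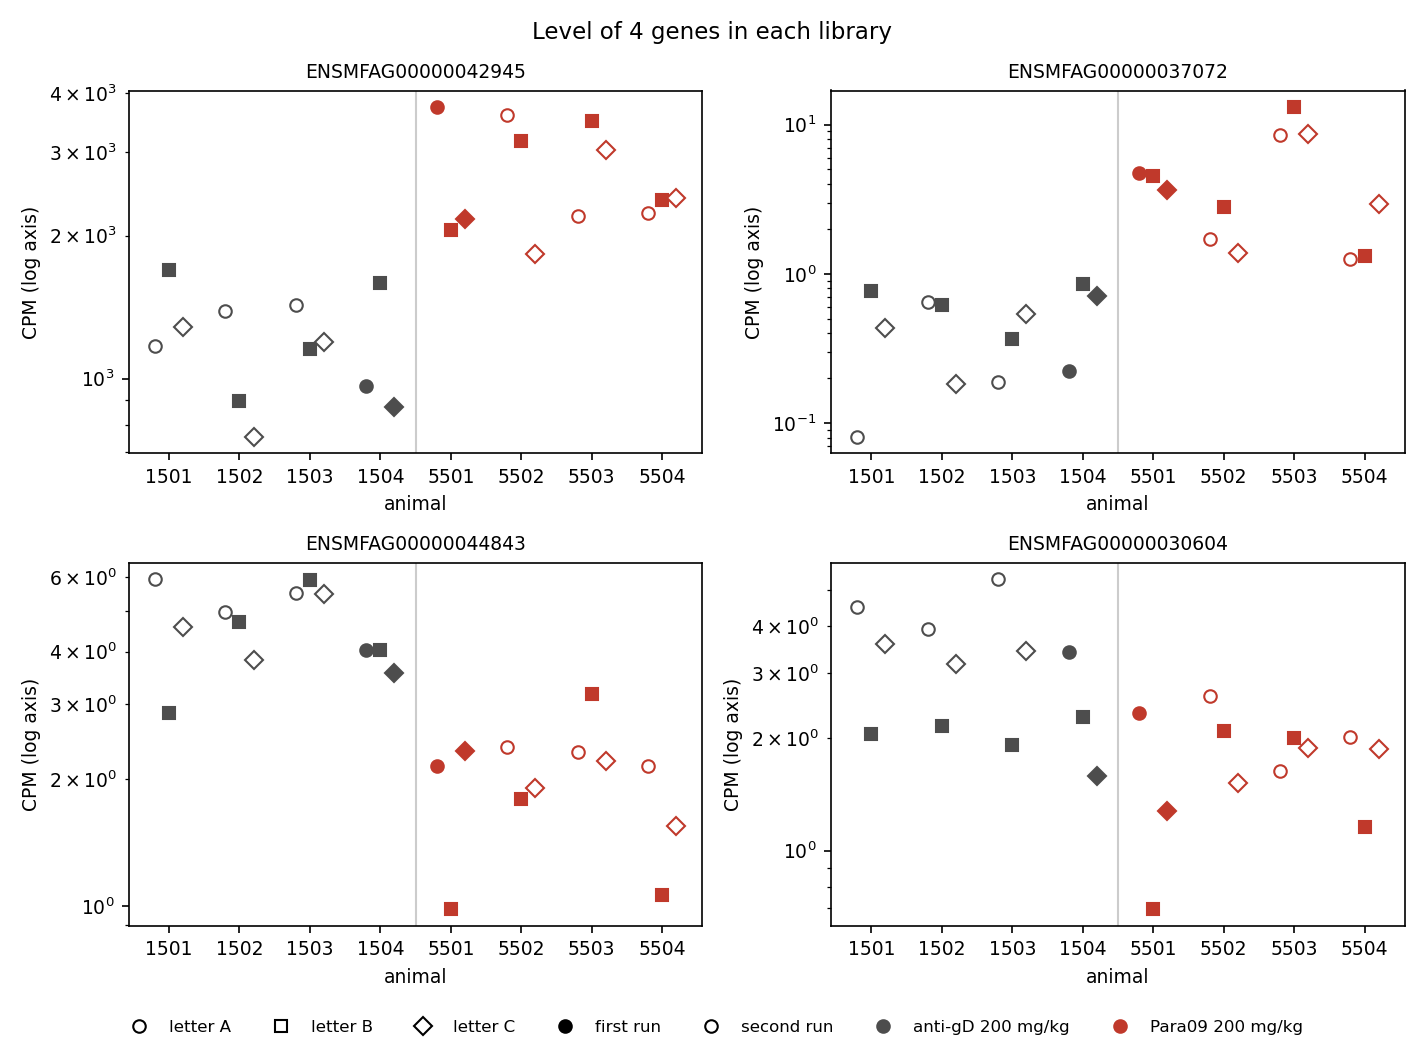
Level (CPM, log axis) of the 4 genes in every library, by animal: controls in grey on the left, Para09 at 200 mg/kg in red on the right. Circles, squares and diamonds are letters A, B and C, filled in the first run and open in the second. For ENSMFAG00000042945 the lowest treated library (1829 CPM) lies above the highest control library (1694 CPM), while letter B libraries of ENSMFAG00000030604 overlap.

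The edgeR fit, which called no gene, bounded the size of the difference for most genes. For 14337 of the 17360 genes (82.6%) the 95% interval of the fold change lay within 2-fold in either direction, and for 10715 (61.7%) within 1.5-fold. The bound depended on level. Among genes with a mean under 1 CPM the median SE was 0.411 on the log2 scale and 26.8% of 2716 genes were bounded within 2-fold. From 1 to 10 CPM the median SE was 0.206 and the share 82.4% of 4600 genes, and from 10 to 100 CPM these were 0.119 and 97.3% of 7830 genes. Of the 81 genes at 1000 CPM and over, 80 were bounded within 2-fold, and ENSMFAG00000042945 is the remaining gene. Estimated differences beyond 2-fold numbered 294, 136 higher and 158 lower. For 10 higher and 3 lower genes the whole interval, unadjusted for the number of genes, lay beyond 2-fold. The 3 most extreme estimates, log2 fold changes of -4.35 to -7.48, came from scarce genes (mean at most 0.663 CPM) whose groups overlapped. In each of these, 1 control animal held 44.1% to 82.8% of the control counts and at least 1 control animal held none.

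**Figure D3:**
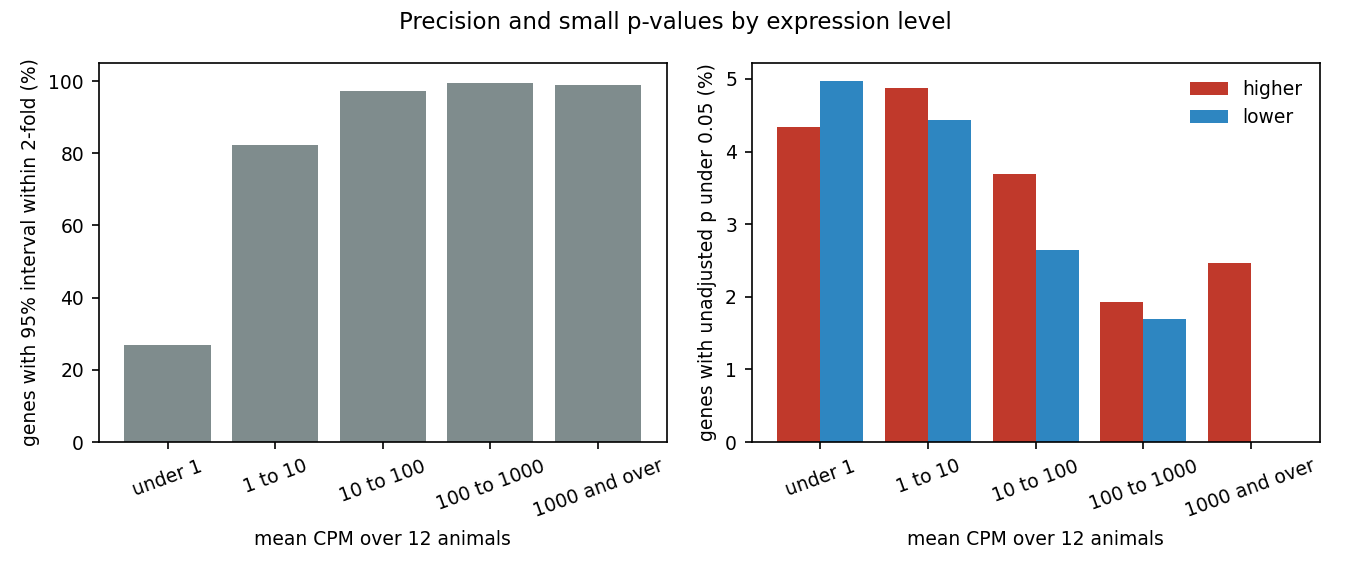
Left, the percentage of genes whose 95% interval of the fold change lies within 2-fold, by mean CPM. Right, the percentage with an unadjusted p under 0.05, higher (red) and lower (blue) at 200 mg/kg. The bounded share rises from 26.8% under 1 CPM to 98.8% at 1000 CPM and over.

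The other count models, run on the same animals, did call genes. DESeq2 on the animal sums called 28 of 17360 genes (0.161%), 19 higher and 9 lower, with absolute log2 fold changes of 0.419 to 3.32. The library-level limma voom model, with terms for run and letter and a shared correlation within each animal, called 16 of 15928 genes (0.1%), 12 higher and 4 lower. It took single libraries as observations, with 1 correlation of 0.273 for all genes. Its p-values can be too small for genes whose libraries agree more closely within an animal. The 2 models shared 9 genes, 8 higher and 1 lower, which is 9 of 28 of the DESeq2 calls and 9 of 16 of the voom calls. For all of those 9 the animals of the groups did not overlap, as for 1.36% (higher) and 1% (lower) of all genes, and since the calls were made on the same 8 animals nothing is read from this. Their mean levels ran from 1.71 to 1830 CPM, with a median of 16.3 against 15.6 over all genes tested, and their median exonic width was 3585 bases against 2600. ENSMFAG00000042945, ENSMFAG00000037072 and ENSMFAG00000044843 were among them, with DESeq2 adjusted p-values of 6.45e-07, 8.01e-08 and 6.45e-07 and limma voom adjusted p-values of 0.00319, 0.0111 and 0.00477. ENSMFAG00000030604 was called by DESeq2 (adjusted p = 0.00803) and not by limma voom (adjusted p = 0.363). These calls rest on the same 4 animals per group as the edgeR fit and are not independent of it. Adjusted p-values over the 23 alternative fits reached 1 for ENSMFAG00000042945, ENSMFAG00000044843 and ENSMFAG00000030604.

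The median fold change was also taken by class of exonic width, as a description, in classes drawn after the data were seen. Genes of 6000 bases and over had a median log2 fold change of -0.0543 (quartiles -0.15 and 0.0329, 2096 genes), and at an unadjusted p under 0.05 there were 37 higher and 91 lower (6.11% of the class in all). Genes of 1000 to 2999 bases had a median of 0.0262 (quartiles -0.114 and 0.142, 7085 genes), with 370 higher and 200 lower (8.05% of the class). Over all genes tested, 3.88% were higher and 3.35% lower at that p. The median of the longest class was -0.0576 within the first run and -0.0579 within the second. It was below 0 in all 23 alternative fits, from -0.0929 to -0.0286, the latter without control animal 1501. The median of the 1000 to 2999 class was above 0 in 22 of 23 and -0.0016 in the limma voom model. Measured from the median of all genes of the same fit, that class stood at 0.0198 in limma voom and 0.024 in the main fit.

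By animal, the width difference was uneven, and in the second run the exact test could not give a p under 0.1. For each animal the median of the longest class minus that of the 1000 to 2999 class was taken, on log2 CPM after subtraction of the mean over the animals of the run, for genes of at least 1 CPM. In letter B it was 0.0709, -0.0181, 0.0671 and 0.041 in control animals 1501 to 1504, and 0.149, -0.082, -0.0642 and -0.203 in animals 5501 to 5504. Animal 5501, whose B library is the one with few genes detected, was the highest of all 8 and the other 3 treated animals were the lowest. The exact two-sided permutation p was 0.314 over the 8 animals. Without animal 5501 the exact permutation p was 0.0286, the smallest those animals can give. That choice was made with these values known and fixed the p, so nothing is read from it. In the second run the difference was 0.139, 0.00918 and -0.0287 in control animals 1501 to 1503 and -0.0445, -0.0322 and -0.0441 in animals 5502 to 5504. The groups did not overlap there (exact two-sided permutation p = 0.1, the smallest that 3 against 3 can give). The part of the number of genes detected in this pattern was not tested.

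**Figure D4:**
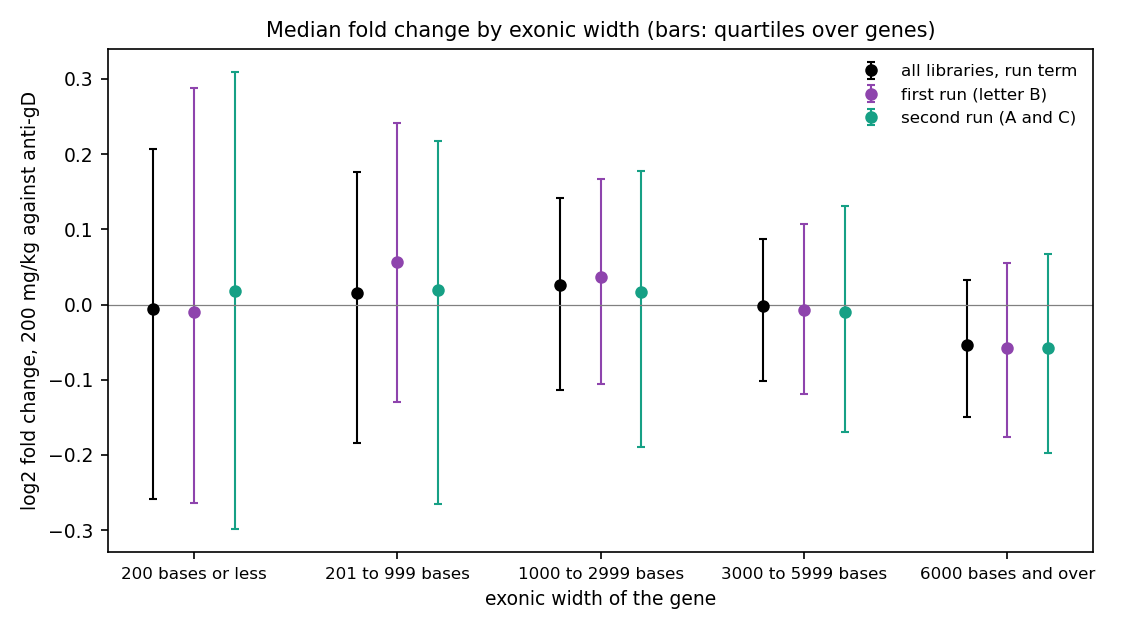
Median log2 fold change between Para09 at 200 mg/kg and anti-gD by exonic width of the gene, with bars from the lower to the upper quartile over genes. Black is the fit of all libraries with a run term, purple the first run (letter B), green the second run. The quartiles of each class span 0, and in the longest class the 3 medians lie near -0.06.

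The spread between libraries of one animal and between animals was taken gene by gene. For the 6 animals with A and C libraries in the second run, the median SD over 14644 genes was 0.228 on the log2 scale between A and C of an animal and 0.182 between animals of a group when A and C were averaged. The SD between animals was the larger for 39.6% of genes. The SD between A and C is that of a single library, and it holds any step from A to C common to the animals. The SD between animals is that of a mean of A and C, which averaging lowers. The 39.6% therefore does not say which source of spread is larger. In letter B alone, the SD between the same animals was 0.252. The median absolute difference between the A and C libraries was smallest in animal 5504 (0.111) and largest in control animal 1502 (0.378). Pairs of animals from different groups lay between pairs of controls and pairs of treated animals in letter B. The median absolute difference per pair had a median of 0.286 between the groups (16 pairs), 0.25 among controls and 0.315 among animals at 200 mg/kg (6 pairs each). In the second run it was 0.229 between the groups (9 pairs), 0.205 among controls and 0.142 among animals at 200 mg/kg (3 pairs each).

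The change of the group difference from one run to the other was tested in a separate fit. In the 6 animals with libraries in both runs, edgeR with the animal as a block called 271 of 16675 genes (1.63%) for treatment by run. For 256 of them the difference between 200 mg/kg and anti-gD was lower in the second run than in the first, and for 15 it was higher. The run itself, within the 3 control animals of this fit, gave 8885 calls (53.3%). In these animals letter B and the first run cannot be told apart. For the 256 genes the median group difference (log2 fold change) was 0.118 in the fit of the first run and -0.507 in that of the second, and -0.198 with all libraries. They had a median level of 38 CPM and a median width of 3253 bases, against 17.3 CPM and 2667 bases over all genes of this test. The runs also differed in genes detected after thinning, with a median of 18104 in the 12 libraries of the first run and 18686 in the 12 of the second, and the part of this in the calls was not tested.

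The step from the B library to the A and C libraries was taken for these genes in each animal. On log2 CPM, the median over the 256 genes of the mean of A and C minus B was 1.6, 2.01 and 1.79 in control animals 1501, 1502 and 1503. In animals 5502, 5503 and 5504 it was 1.06, 0.851 and 0.917. In the median, these genes were higher in the A and C libraries than in the B library of every animal tested, by a larger step in the controls. The genes were selected on these 6 animals, so the values are a description. In animals that the test did not use, the step was 1.6, 1.09, 0.728 and 2.11 in animals 4501 to 4504 at 50 mg/kg, which spans the values of both groups. Animal 5501, with all libraries in the first run, had a step of 1.23 and control animal 1504, likewise, one of -0.241. The step of animal 5501 is measured from library 5501B, the one with few genes detected (15665 after thinning). The part of that library in the step was not tested. The number of calls moved with each animal left out. It was 1064, 66 and 26 when control animals 1501, 1502 and 1503 were dropped in turn, and 163, 38 and 39 when animals 5502, 5503 and 5504 were.

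**Figure D5:**
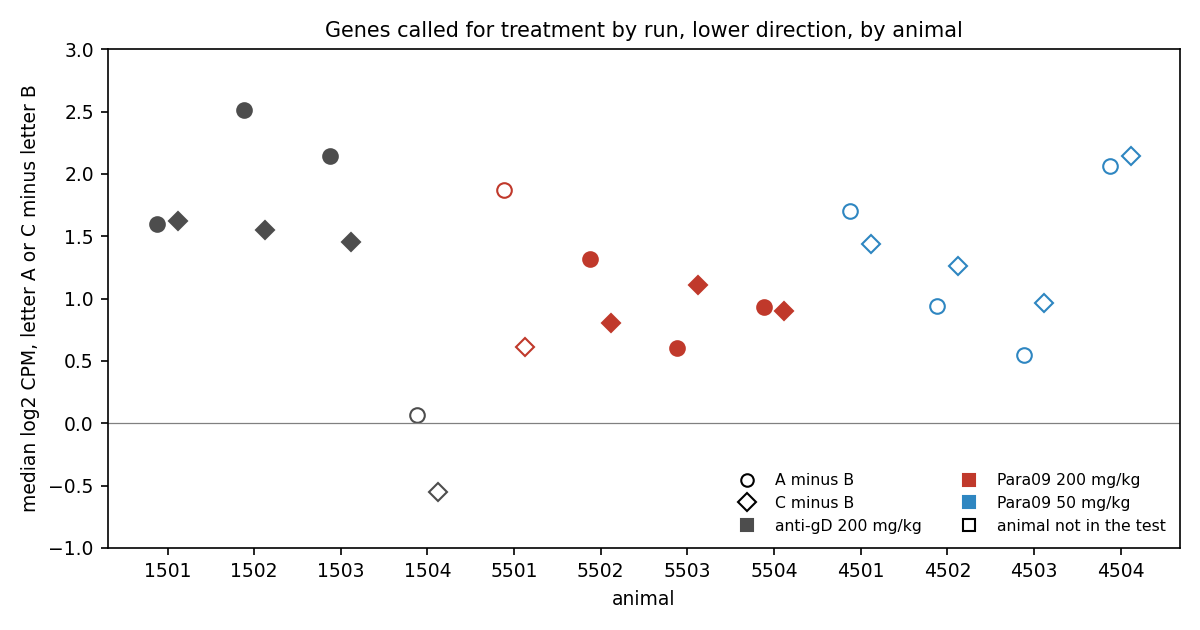
Median over 256 genes of log2 CPM in letter A (circles) or letter C (diamonds) minus letter B, for each animal. Filled symbols are the 6 animals of the test; open symbols are animals it did not use. Filled control symbols lie between 1.45 and 2.51 and filled symbols at 200 mg/kg between 0.6 and 1.32, while animals at 50 mg/kg run from 0.545 to 2.14.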

How the data were processed

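Bulk RNA from frontal cortex was extracted with a lipid tissue kit and treated with DNase on the column, per the labels' protocols. Per the file headers, the deposited tables list 28623 genes per library with a raw count, an RPKM and an exonic width. The submitters' processing notes name GSNAP and give no version. Genome build, annotation, strand, counting tool and treatment of multiply matching reads are absent from the labels and headers read, so overlapping genes and close copies may share counts. RPKM values made by the authors served to recover their read totals and are not tested. A table of 40596 RefSeq genes matched 0 identifiers, so the gene lists could not be applied.

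Counts were summed per animal and tested with edgeR 4.0.16 (R 4.3.3; quasi-likelihood, TMM, filterByExpr) on all 12 animals, with an indicator for animals 1504 and 5501 as the run term. CPM values are TMM-scaled, and log2 CPM used a prior count of 2. Alternatives used DESeq2 1.42.0 and limma 3.58.1, among others. The models were tested on simulated data. Named genes were the 2 higher and 2 lower of smallest p with a mean CPM of at least 1 over all 12 animals. Members, lists and tests were chosen with earlier results of these data known. Nothing states how the libraries of an animal were taken. Letter A and letter C fits, fits without animals 1504 and 5501, and width classes were chosen after seeing the data.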

Additional observations from a re-analysis of the deposited data

Results flagged for a closer look

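In a check of 14 groups of 4 animals for a value far from the rest, which chance finds in about 1 in 20 groups, animal 5501 at 200 mg/kg had 17328 genes detected on average after thinning to 15000000 counts, where the next animal of its group had 18480. Its B library, with 15665 genes, set that value, as its A and C libraries had 18257 and 18062.

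The group difference changed from the first to the second run for 271 genes (edgeR, treatment by run, 6 animals). The 256 genes of the lower direction carried most of that count. Letter and run cannot be told apart in those animals.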

How the results depend on the processing

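No gene was called in edgeR fits with other size factors or filters, with only 8 animals, with other run handling, without library 5501B or with single letters, nor in limma trend. Calls came from DESeq2 (28), limma voom (16) and the edgeR fits that each left out an animal (0 to 1, the 1 without animal 5503). Genes at an unadjusted p under 0.05 numbered 1256, against 691 without a run term, 362 in the first run, 2158 in the second, 560 in letter C alone and 860 to 1898 with an animal left out. The indicator leaves animal 1504 or 5501 without weight once the other is left out. Calls for treatment by run were 1241 without a low-count filter and 26 to 1064 with an animal left out. Genes bounded within 2-fold ran from 11445 to 15192. The direction of the 4 named genes was the same in all 23 fits. These fits share animals with the fit that picked the genes, so nothing is read from this. Those without animal 1504, without 5501 and without both are nearly the same fit.

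Of the quality values at 200 mg/kg minus anti-gD, the difference in genes detected (-91.3) turned to 117 without library 5501B, and ran from -197 to 205 with an animal left out (205 without 5501). That in the gene-table share (0.735 percentage points) ran from -0.0457 without animal 1502 to 1.47 without animal 1501. That in the share of the 100 top genes (0.592) turned to -0.368 without animal 1501, and was 1.83 without animal 1502. The exact permutation p of the latter was 0.0286, the smallest possible there, and is not adjusted for the many such fits. The median of genes of 1000 to 2999 bases turned to -0.0016 in limma voom, and was 0.0198 when measured from the median of all genes of that fit.

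With the last digit of the animal number as a replicate block, edgeR called 0 genes and 1157 had an unadjusted p under 0.05. Deviations of same-numbered animals correlated at 0.233, 0.162, -0.035 and 0.221. Values for differently numbered animals are not given beside these, so they do not say whether the numbers mark pairs. The main fit did not read the numbers as pairs. Precision was lowest for genes under 1 CPM, with a median SE of 0.411.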
